A study of Mus musculus with 21 samples.

Results

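The comparison described here set lung from mice given repeated intranasal LPS against lung from Control mice, across all genes of 1 count table. Its members are the 6 libraries of these groups, 3 of LPS and 3 of Control, out of 21 libraries in the series. Lung RNA of female mice of A/J, an inbred strain prone to lung tumours, was sequenced at 22 weeks after treatment, per the labels. Other groups received the tobacco carcinogen NNK, alone, with LPS or with LPS and dietary agents, and their RNA came from dissected tumours pooled from 3 mice per group. LPS mice of the present comparison received 5 µg of LPS in 50 µL of buffered saline per mouse, once weekly until the study ended, without NNK. Control mice received the vehicle of NNK, per the labels, which do not say whether saline was instilled into their noses. Both groups were normal lung tissue rather than tumour. The labels state neither whether each library came from its own mouse nor how long after the last instillation the tissue was taken. The p-values therefore measure spread between libraries, and that spread was estimated in 1 fit of all 21 libraries, tumours included.

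LPS, the outer-membrane glycolipid of Gram-negative bacteria, is handed by the soluble protein LBP and the surface protein CD14 to the TLR4 and MD-2 receptor complex. The receptor signals through the adaptor MYD88 to NF-kB, which drives cytokine genes, and through the adaptor TRIF to interferon regulatory factors, which drive type I interferon genes. Both arms switch on their own inhibitors, and in lung the first responders are alveolar macrophages and epithelium, followed by neutrophils, monocytes and lymphocytes.

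The library totals were 13.3 to 15.6 × 1e6 counts in Control and 14.8 to 15.7 × 1e6 in LPS. Library LPS 3 stood apart from LPS 1 and LPS 2 in its counts of mt-Atp8 per count of mt-Atp6, 0.0854 against 0.0222 and 0.0222, while Control stood at 0.0206 to 0.0217. LPS 3 shared that higher value with the libraries that follow it in the order of the titles, and the labels name no batch. Among Control libraries, Control 3 had 101 of 11969 genes at least 2-fold above the mean of the other two, against 6 and 7 genes for Control 1 and Control 2. Lung markers were abundant in all 6 libraries, with the secretory-cell gene Scgb1a1 and the surfactant gene Sftpc among the highest 3 means of each group. CPM here is a gene's count per 1e6 counts of its library after TMM normalisation, and ± after a mean is the SD over 3 libraries. Transcripts of tissue around or within the lung also moved with the groups. The summed level of 14 heart muscle markers was 779 to 828 CPM in Control and 237 to 264 in LPS. That of 12 erythroid and platelet markers was 4775 to 9604 and 1291 to 2465 CPM. Their part in the results below was not tested. In bulk tissue, fewer cells of a type and less RNA per cell cannot be told apart.

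Repeated LPS changed the level of many genes, and the upward changes reached further than the downward ones. At an adjusted p under 0.05, 7890 of 15770 tested genes differed (50.0%), 3993 of them higher in LPS (25.3%) and 3897 lower (24.7%). At least 2-fold higher were 1623 genes (10.3%) and at least 2-fold lower 1188 (7.53%). A log2 fold change of 5 or more was reached by 168 genes that rose and 5 that fell. The median log2 fold change over all tested genes was -0.02, and each list below is read against it and against these shares. In what follows "rose" and "fell" refer to this test, and ± after a log2 fold change is its standard error. That error was derived from the test, as the absolute log2 fold change over the square root of the F statistic. Differences in fold change between 2 genes were not tested. The CPM of the 3 Control and the 3 LPS libraries did not overlap for 9672 of the tested genes (61.3%). Leaving out LPS 3 gave 6613 called genes. It shared 6475 of them with the full comparison, all in the same direction.

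**Figure D1:**
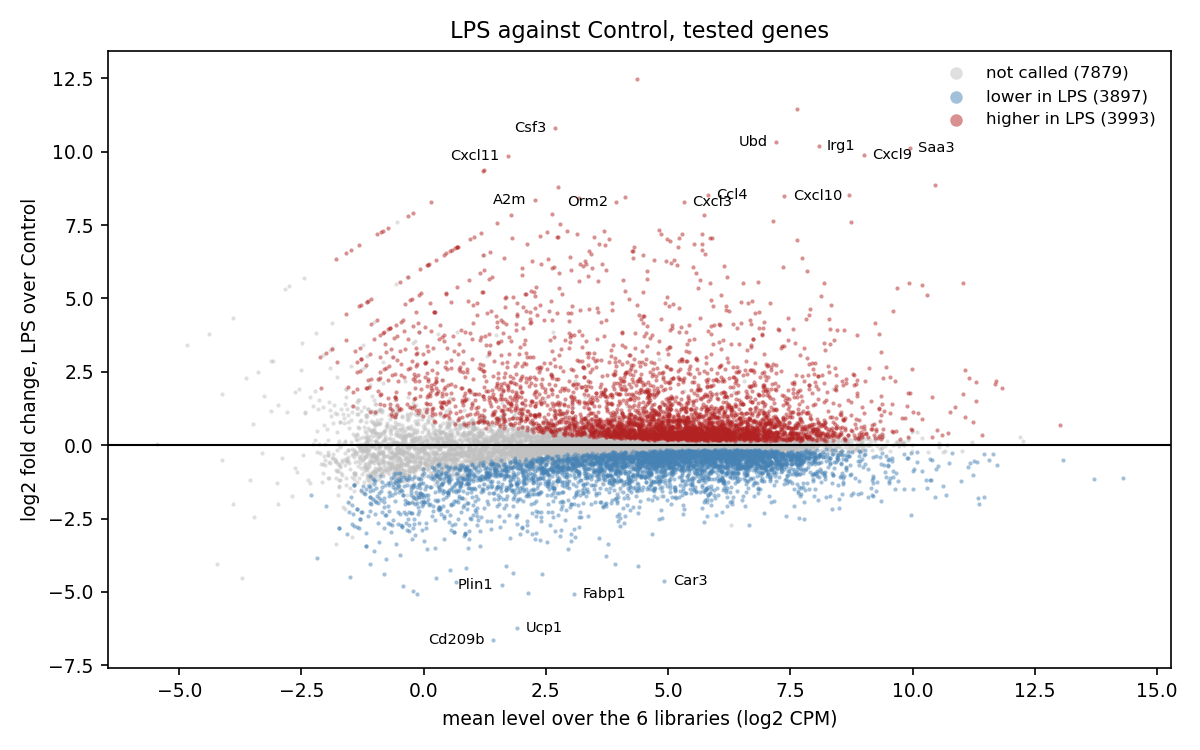
Log2 fold change of LPS over Control (y axis) against the mean level in the 6 libraries (x axis, log2 CPM) for the 15770 tested genes. Red points were called higher, blue points lower and grey points not called, and the labels name 16 of the 24 genes with the highest and lowest log2 fold changes, once uncharacterised models, antibody and T cell receptor segments, low genes and genes with overlapping groups were left out. A gene with no count in the 6 libraries is not drawn. The red points reach above 10 and the blue points to about -6.6.

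The most abundant transcripts of both groups included those of epithelial genes, and in LPS host-defence genes joined them. Scgb1a1 was at 29236, 26997 and 26475 CPM in Control and 14296, 13523 and 10705 CPM in LPS, the highest mean in each group. Lyz2, the lysozyme of macrophages and type 2 cells, rose from 6321 ± 849 to 10217 ± 2015 CPM. Fth1, B2m, C3, Cd74, Lcn2 and H2-D1 were among the 12 highest means in LPS and not in Control. B2m, the light chain of class I molecules, was at 1035, 1157 and 1394 CPM in Control and 5067, 5441 and 5999 CPM in LPS (2.20 ± 0.17), a gap far wider than the spread within groups. Cbr2, Hbb-bs, Sftpb, Cyp2f2, mt-Co3 and Slc34a2 were among the 12 in Control and not in LPS. Slc34a2, the phosphate transporter of type 2 cells, was at 3542 ± 95.3 and 2481 ± 272 CPM. The other 5, shared with Scgb1a1 by both sets, were Lyz2, Sftpc, Sftpa1, mt-Co1 and Eef1a1.

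The genes with the highest fold changes encode secreted mediators and the enzymes and modifiers of activated myeloid cells. Irg1 (chr14:103046977-103056573), whose enzyme makes the antibacterial metabolite itaconate, stood at 0.758, 0.0638 and 0.581 CPM in Control 1 to 3 and at 690.1, 451 and 478 CPM in LPS 1 to 3. Its log2 fold change was 10.20 ± 0.93 (adjusted p = 3.87e-07). Only genes whose groups did not overlap could enter this set. Ubd (chr17:37193892-37196095), a ubiquitin-like modifier that marks proteins for the proteasome, went from 0.152, 0.0638 and 0.452 CPM to 296, 262 and 332 CPM, a log2 fold change of 10.32 ± 1.85 (adjusted p = 0.000257). Cxcl10 (chr5:92346638-92348889), a ligand of CXCR3 on activated T cells, was at 0.834, 0.702 and 1.23 CPM in Control and 441, 246 and 310.2 CPM in LPS. Its LPS libraries spread about their mean more than those of Ubd, and its log2 fold change was 8.48 ± 1.04 (adjusted p = 7.24e-06). Gpr84, a receptor for medium-chain fatty acids on myeloid cells, was at 0, 0.0638 and 0.194 CPM in Control and 31.8, 30.2 and 41.5 CPM in LPS. Ccl4, a chemokine of activated macrophages, went from 0.290 ± 0.141 CPM in Control to 112 ± 15.1 CPM in LPS, a log2 fold change of 8.54 ± 0.66. The neutrophil chemokine gene Cxcl3 rose by 8.28 ± 1.06, from 0.250 ± 0.166 to 79.6 ± 7.12 CPM. Plasma proteins of the acute phase were in this set too. The orosomucoid gene Orm2 was at 0.0759, 0.0638 and 0.129 CPM in Control and 25.4, 30.8 and 35.4 CPM in LPS. A2m, the protease inhibitor alpha-2-macroglobulin, had 1 count in Control and 423 in LPS, an LPS to Control ratio of 432 (95% interval 77.1 to 17089, counting error only). The remaining genes named by the rule were Saa3, Cxcl9, Csf3 and Cxcl11, all with log2 fold changes above 9. Of these, Csf3 and Cxcl11 had no count in any Control library, and they were at least 192-fold and 95.9-fold higher in LPS, with the Control group set at its floor of 3 counts.

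**Figure D2:**
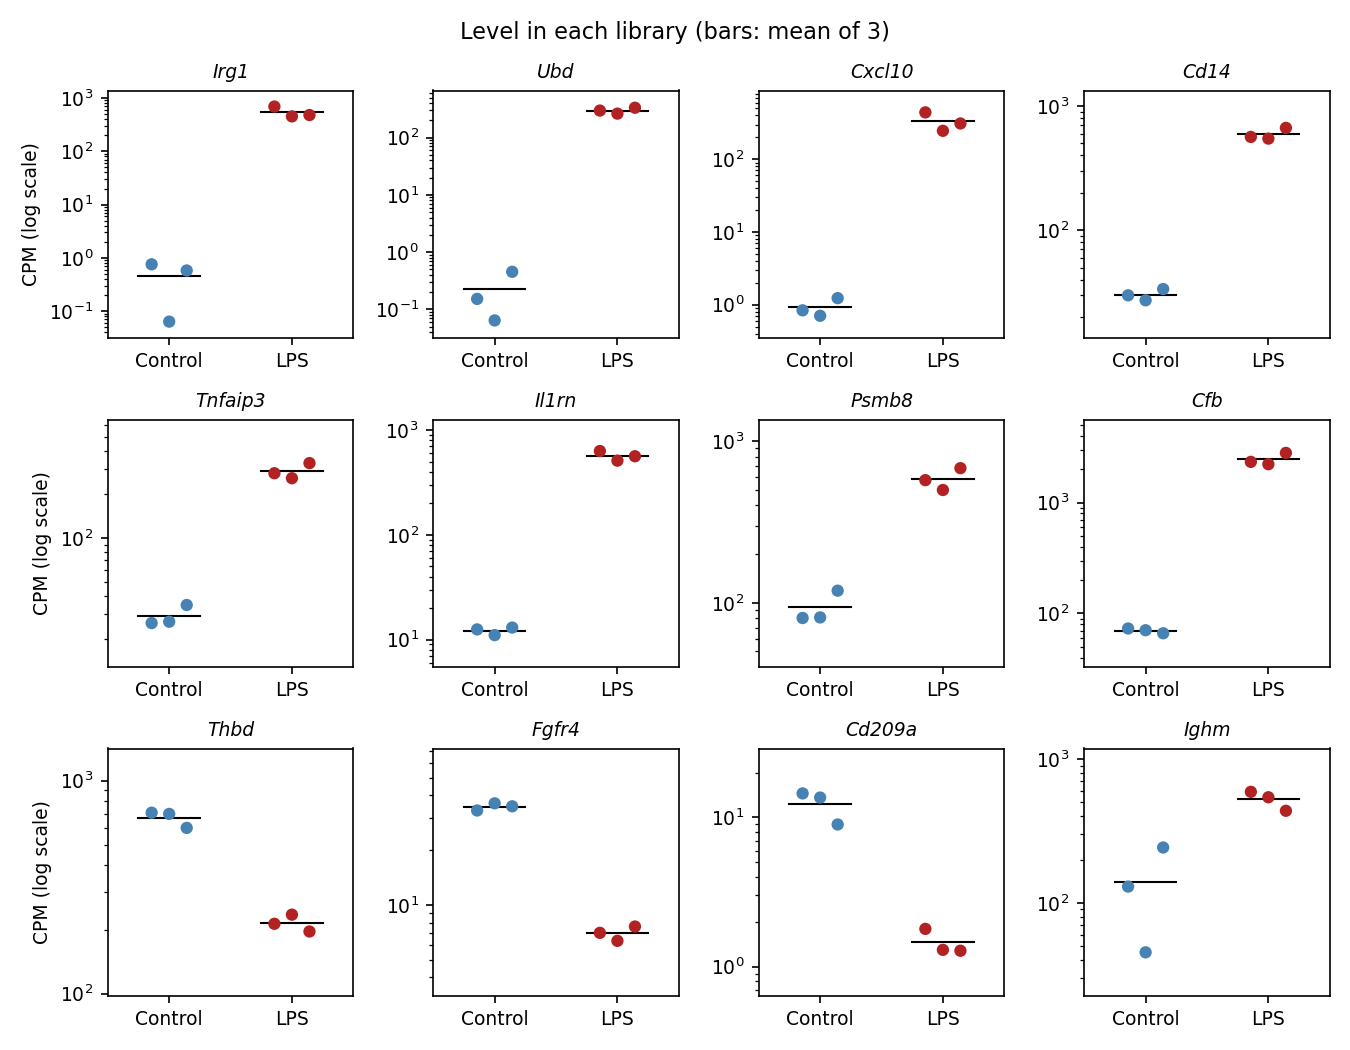
Level of 12 genes in each library (y axis, CPM on a log scale, 1 point per library, horizontal bars at group means). LPS libraries lie above Control for the first 8 panels and for Ighm, whose Control libraries are widely spread, and below it for Thbd, Fgfr4 and Cd209a.

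Promoter sequences of 6 genes with large changes are shown because motifs bound by the factors named above lie close together in them. The 6 were chosen after their motifs had been seen. They come from RefSeq promoters of build GRCm38.p6, whose first 250 bases lie before the gene's start, and the coordinates are those of the printed stretch. Capitals mark matches to the NF-kB motifs GGANTTTCC and GGGANTTCC, the interferon response element core AAANNGAAA, the gamma-activated site TTCNNNGAA and the E-box CACGTG. All motifs were searched on both strands, and TGACGTCA, the CRE, was searched as well.
Cxcl10 (chr5:92348980-92349109, minus strand): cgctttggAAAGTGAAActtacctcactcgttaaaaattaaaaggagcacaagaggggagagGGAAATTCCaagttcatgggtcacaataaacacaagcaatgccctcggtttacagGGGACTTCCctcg
Ubd (chr17:37193792-37193891, plus strand): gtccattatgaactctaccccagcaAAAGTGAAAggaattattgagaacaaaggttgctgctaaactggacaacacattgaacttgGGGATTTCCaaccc
Irg1 (chr14:103046912-103047011, plus strand): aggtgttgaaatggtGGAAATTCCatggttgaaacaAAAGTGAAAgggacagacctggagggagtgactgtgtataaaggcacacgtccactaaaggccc
Tnfaip3 (chr10:19015411-19015470, minus strand): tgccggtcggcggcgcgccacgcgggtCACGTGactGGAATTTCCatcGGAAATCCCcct
Tgtp1 (chr11:48992297-48992376, minus strand): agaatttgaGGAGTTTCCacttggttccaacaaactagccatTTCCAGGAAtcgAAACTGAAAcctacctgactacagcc
Igtp (chr11:58199466-58199555, plus strand): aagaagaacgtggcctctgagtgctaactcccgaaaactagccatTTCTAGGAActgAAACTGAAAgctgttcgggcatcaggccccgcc
Positions count back from the RefSeq start of the gene, with -1 the last base before it. The GENCODE gene used for the coordinates elsewhere starts further upstream for Tgtp1, Tnfaip3 and Irg1, so the stretches of Tgtp1 and Tnfaip3 lie inside it and that of Irg1 partly so. Cxcl10 has a response element core at -212 to -204 and NF-kB motifs at -158 to -150 and -103 to -95. Ubd and Irg1 each pair a response element core, at -75 to -67 and -64 to -56, with an NF-kB motif, at -14 to -6 and -85 to -77. Tgtp1 and Igtp, which encode interferon-inducible GTPases, each have a gamma-activated site 3 bases before the response element core, and Tgtp1 an NF-kB motif further out. Tnfaip3, the gene of the NF-kB inhibitor A20, has an NF-kB motif at -24 to -16 and another at -12 to -4, next to an E-box.

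Over the 32851 promoter stretches of 250 bases in the table, 2.46% held either NF-kB motif, 9.37% the response element core and 7.02% the gamma-activated site. Among the interferon-stimulated genes described below, 21 of 26 had a promoter in the table, and 11 of their 25 promoters held the response element core. Of the tested interferon-inducible GTPase genes, 11 of 19 had a promoter there, under 80%, so a share for the whole list is void. Of those 11 promoters, 10 held the response element core and 6 the gamma-activated site. In contrast, 3 of 19 promoters of the antigen-processing list held the response element core, although all of that list's tested genes rose. These counts describe letters in the reference strain and were given no test.

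Most genes that sense LPS rose, the receptor gene Tlr4 by less than 2-fold. Of the 23 tested genes of LPS sensing, 20 rose and 0 fell, with a median log2 fold change of 1.58. Cd14, the co-receptor that delivers LPS, was at 29.9, 27.3 and 33.6 CPM in Control and 564, 547 and 667 CPM in LPS, a log2 fold change of 4.29 ± 0.40 (adjusted p = 4.55e-07). Tlr4 was at 43.6, 46.2 and 38.5 CPM and 74.0, 62.2 and 67.8 CPM, and its log2 fold change of 0.67 ± 0.10 (adjusted p = 2.76e-05) was below the list's median. Ly96, which encodes MD-2, rose by 1.58 ± 0.31 and the adaptor gene Myd88 by 1.34 ± 0.10. Aoah, an enzyme that inactivates LPS by removing fatty acyl chains, rose from 0.683, 0.702 and 1.49 CPM to 28.3, 24.2 and 31.7 CPM, the highest log2 fold change of this list at 4.85 ± 0.55 (adjusted p = 2.64e-06). Receptors for other microbial ligands rose as well, among them Tlr9 (3.14 ± 0.45), which senses DNA, and Tlr13 (2.68 ± 0.30), which senses bacterial ribosomal RNA. The kinase gene Map3k7 and the ligase gene Traf6, shared by all of these receptors, had log2 fold changes of -0.09 and 0.11 and were not called.

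Genes of the pathway's transcription factors and of most of its inhibitors rose. Of 24 tested NF-kB subunits and inhibitors, 21 rose and 0 fell (median 1.77). Socs1, which blocks cytokine receptor kinases, was at 1.97, 1.98 and 3.03 CPM in Control and 74.3, 49.4 and 63.6 CPM in LPS, a log2 fold change of 4.73 ± 0.46 (adjusted p = 5.71e-07). Tnfaip3 was at 25.9, 26.4 and 34.5 CPM and 279.9, 259 and 329 CPM, a log2 fold change of 3.32 ± 0.37 (adjusted p = 2.25e-06), with the groups far apart. Tnip3, Irak3 and Zc3h12a, which act on ubiquitin chains, receptor kinases and cytokine messenger RNA, rose by 4.44 ± 0.49, 2.62 ± 0.25 and 2.59 ± 0.32. The NF-kB subunit genes rose too, with 2.01 ± 0.22 for Nfkb2, 1.76 ± 0.29 for Relb, 0.89 ± 0.23 for Rel, 0.66 ± 0.09 for Nfkb1 and 0.41 ± 0.10 for Rela. Sigirr and Tollip, inhibitors that epithelium carries at rest, had log2 fold changes of -0.03 and -0.03 and overlapping groups.

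Decoys and antagonists of the interleukin-1 family rose. Il1rn, the receptor antagonist, was at 12.5, 11.0 and 13.0 CPM in Control and 632, 512 and 564 CPM in LPS, a log2 fold change of 5.54 ± 0.27 (adjusted p = 7.59e-10). The decoy receptor gene Il1r2 was at 0.379, 0.766 and 0.839 CPM and 31.4, 26.0 and 42.5 CPM, a log2 fold change of 5.62 ± 0.94. Il18bp, which neutralises interleukin-18, rose by 4.18 ± 0.39, whereas Il18 itself fell by 0.78 ± 0.24, with means of 17.8 ± 3.27 CPM in Control and 10.4 ± 3.36 CPM in LPS. That fall was not called without LPS 3 or without Control 1 (adjusted p = 0.0871 and 0.082). The receptor genes Il1r1, Il1rap and Il18r1 had log2 fold changes of 0.24, 0.14 and 0.02 and were not called, though Il1r1 was called higher with the 6 libraries alone in the fit (adjusted p = 0.0202). Sensors and executioners of the inflammasome rose, among them Nlrp3 (4.10 ± 0.40), Casp4 (2.32 ± 0.25), whose protein binds LPS inside cells, and Gsdmd (1.41 ± 0.13), the pore former. Over the 20 tested genes of the family, 14 rose and 1 fell (median 1.96).

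Genes of the interleukin-6 family and the acute phase rose in 16 of 22 cases and fell in 1 (median 1.82). Il6 was at 0, 0.255 and 0.194 CPM in Control and 23.7, 19.1 and 34.6 CPM in LPS, a log2 fold change of 7.30 ± 0.81 (adjusted p = 2.04e-06). Ptx3, a pentraxin that opsonises microbes, was at 0.152, 0.192 and 0.258 CPM and 19.7, 15.6 and 36.7 CPM, with LPS 3 the highest of its group. Osm, the gene of oncostatin M, rose by 3.76 ± 0.32. Its receptor gene Osmr rose by 0.85 ± 0.16, and Lifr, which encodes the receptor of the related factor LIF, fell by 1.12 ± 0.17. The shared receptor genes Il6ra and Il6st had log2 fold changes of 0.08 and -0.14 and were not called. The liver-type fibrinogen genes Fga and Fgg were near 0 in both groups, with means of 0.111 and 0.208 CPM in Control and 0.343 and 0.115 CPM in LPS.

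Among 25 tested genes of the tumour necrosis factor superfamily, 21 rose and 0 fell (median 2.14). Tnf was at 0.683, 0.702 and 1.61 CPM in Control and 75.8, 73.9 and 65.3 CPM in LPS, a log2 fold change of 6.14 ± 0.69 (adjusted p = 2.57e-06). Tnfrsf9, a co-stimulatory receptor of activated lymphocytes, was at 1.52, 1.02 and 1.49 CPM and 77.9, 83.8 and 108 CPM (6.07 ± 0.90). Of the TNF receptors, the inducible Tnfrsf1b rose by 2.81 ± 0.16 and the widely expressed Tnfrsf1a by 0.83 ± 0.08. Tnfsf10, the death ligand TRAIL, had a log2 fold change of -0.21 with overlapping groups.

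Inflammatory chemokine genes rose, while several that guide cells in resting tissue were not called. Neutrophil chemokines and growth factors rose in 15 of 18 cases (median 2.08) and CC chemokines in 11 of 18 (median 3.18), each with 1 member lower. Cxcl5, which lung epithelium makes, was at 3.94, 5.04 and 2.84 CPM in Control and 165, 145 and 231 CPM in LPS, a log2 fold change of 5.51 ± 0.84 (adjusted p = 5.78e-05). Cxcl15, the constitutive chemokine of lung epithelium, was at 2438, 2222 and 1916 CPM and 2047, 1785 and 1918 CPM, overlapped and was not called. Ccl2, the main attractant of monocytes, was at 0.607, 0.383 and 0.646 CPM and 73.8, 67.7 and 80.6 CPM (7.07 ± 0.91). Cxcl12, which retains stem and immune cells, and Ccl21a, which guides cells into lymphatics, had log2 fold changes of 0.14 and -0.04 and overlapping groups. The T cell attractants Ccl17 and Ccl22 and the eosinophil attractant Ccl11 had values of 0.27, 0.84 and -0.10 and were not called. The groups did not overlap for Ccl22, and it was called higher with the 6 libraries alone (adjusted p = 0.00165). The platelet chemokine Ppbp fell by 1.89 ± 0.46, from 3.28 ± 0.516 to 0.879 ± 0.296 CPM. It stands on the erythroid and platelet marker list whose sum was also lower in LPS.

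Chemokine receptors rose in 13 of 19 cases, and none of the tested members fell. Cxcr2, the neutrophil receptor for Cxcl3 and Cxcl5, rose by 3.64 ± 0.78 on the log2 scale. Darc, the venular scavenger that carries chemokines across the vessel wall, rose from 0.228, 0.319 and 0.452 CPM to 5.95, 5.12 and 10.6 CPM (4.39 ± 0.51). Xcr1 and Ccr6, receptors of a dendritic cell type and of B and T cell subsets, had log2 fold changes of 0.14 and 0.28 and overlapping groups.

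Cytokines of the interleukin-17 type of helper response were detected in LPS, and those of the allergic type had 11 counts or fewer in either group. Il17a had no count in Control and 48, 35 and 12 counts in LPS 1 to 3, at least 32.3-fold higher with Control at the floor. Il21, made by follicular helper cells, had no count in Control and 19, 13 and 20 in LPS, at least 17.7-fold higher. Il22, too low to be tested, had 1 count summed over Control and 41 over LPS. Il4 had 1 count in each group, Il5 11 in Control and 1 in LPS, and Il13 none in any of the 6 libraries, which allows up to 0.069 CPM in LPS. Cytokines that shape helper cells rose, such as Il27 (4.14 ± 0.47), Ebi3 (3.75 ± 0.39), Il23a (3.63 ± 0.82) and Il12b (2.80 ± 0.47). The lineage factor gene Tbx21 of the interferon-gamma type rose by 2.70 ± 0.48, from 1.06 ± 0.700 to 7.00 ± 1.51 CPM, while Gata3, that of the allergic type, had a log2 fold change of -0.05 and overlapping groups. In all, 17 of 20 tested genes of this list rose and 1 fell.

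Interferon-inducible GTPases, which attack the vacuoles that enclose intracellular microbes, rose in 18 of 19 cases, all at least 2-fold, with a median log2 fold change of 3.60. Tgtp1 was at 2.28, 3.77 and 8.26 CPM in Control and 397, 340.2 and 228 CPM in LPS, a log2 fold change of 6.06 ± 0.77 (adjusted p = 1.08e-05). Igtp was at 10.8, 13.0 and 31.3 CPM and 512, 377 and 486 CPM (4.63 ± 0.57), and Gbp5, a guanylate-binding protein that promotes inflammasome assembly, at 13.1, 15.3 and 38.5 CPM and 728, 473 and 655 CPM (4.79 ± 0.58). Control 3 was the highest Control library for all of these, yet remained below every LPS library. Summed over the list, the level was 515, 678 and 1391 CPM in Control and 10842, 7594 and 9558 CPM in LPS. Without Control 3 the same number of members, 18, rose. The giant GTPase gene Gvin1 was the member not called (-0.19).

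All 26 tested genes of the classical interferon-stimulated set rose (median 2.49). Oas3, which makes the second messenger that activates RNase L, was at 1.44, 1.15 and 3.36 CPM in Control and 156, 114 and 148 CPM in LPS, a log2 fold change of 6.12 ± 0.70 (adjusted p = 3.41e-06). Zbp1, a sensor of left-handed nucleic acid that triggers necroptosis, was at 5.54, 5.62 and 16.1 CPM and 309, 202 and 274 CPM (4.84 ± 0.55). All LPS libraries were far above Control for both genes. Stat2 and Irf9, subunits of the type I interferon complex, rose by 1.86 ± 0.15 and 1.10 ± 0.12.

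Antigen processing genes rose as a set, with higher fold changes for the inducible proteasome subunits than for the constitutive ones they replace. All 20 tested genes of the class I pathway rose (median 2.19). Psmb8 was at 80.5, 81.1 and 119 CPM in Control and 573, 498 and 680.1 CPM in LPS, a log2 fold change of 2.64 ± 0.23, and its constitutive counterpart Psmb5 at 47.6, 45.5 and 38.3 CPM and 72.5, 71.5 and 83.6 CPM (0.79 ± 0.09). Psmb9 rose by 2.38 ± 0.27 against 0.63 ± 0.06 for its counterpart Psmb6, and Psmb10 by 1.89 ± 0.17 against 0.46 ± 0.08 for Psmb7. All 16 tested constitutive subunits rose too, with a median of 0.61, and 1 of them reached 2-fold. Tap1, a peptide transporter that shares a promoter region with Psmb9, rose by 3.26 ± 0.40, and the trimming enzyme gene Erap1 by 0.77 ± 0.08. Nlrc5, the transactivator of class I genes, was at 13.1, 16.8 and 54.0 CPM and 329.9, 251 and 305 CPM (3.40 ± 0.50). Of 13 class II genes, 12 rose. The gene not called, H2-Ob, which restrains peptide loading in B cells, had its highest Control level in Control 3 (16.4, 10.5 and 48.6 CPM against 47.5, 29.1 and 42.0 CPM in LPS).

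**Figure D3:**
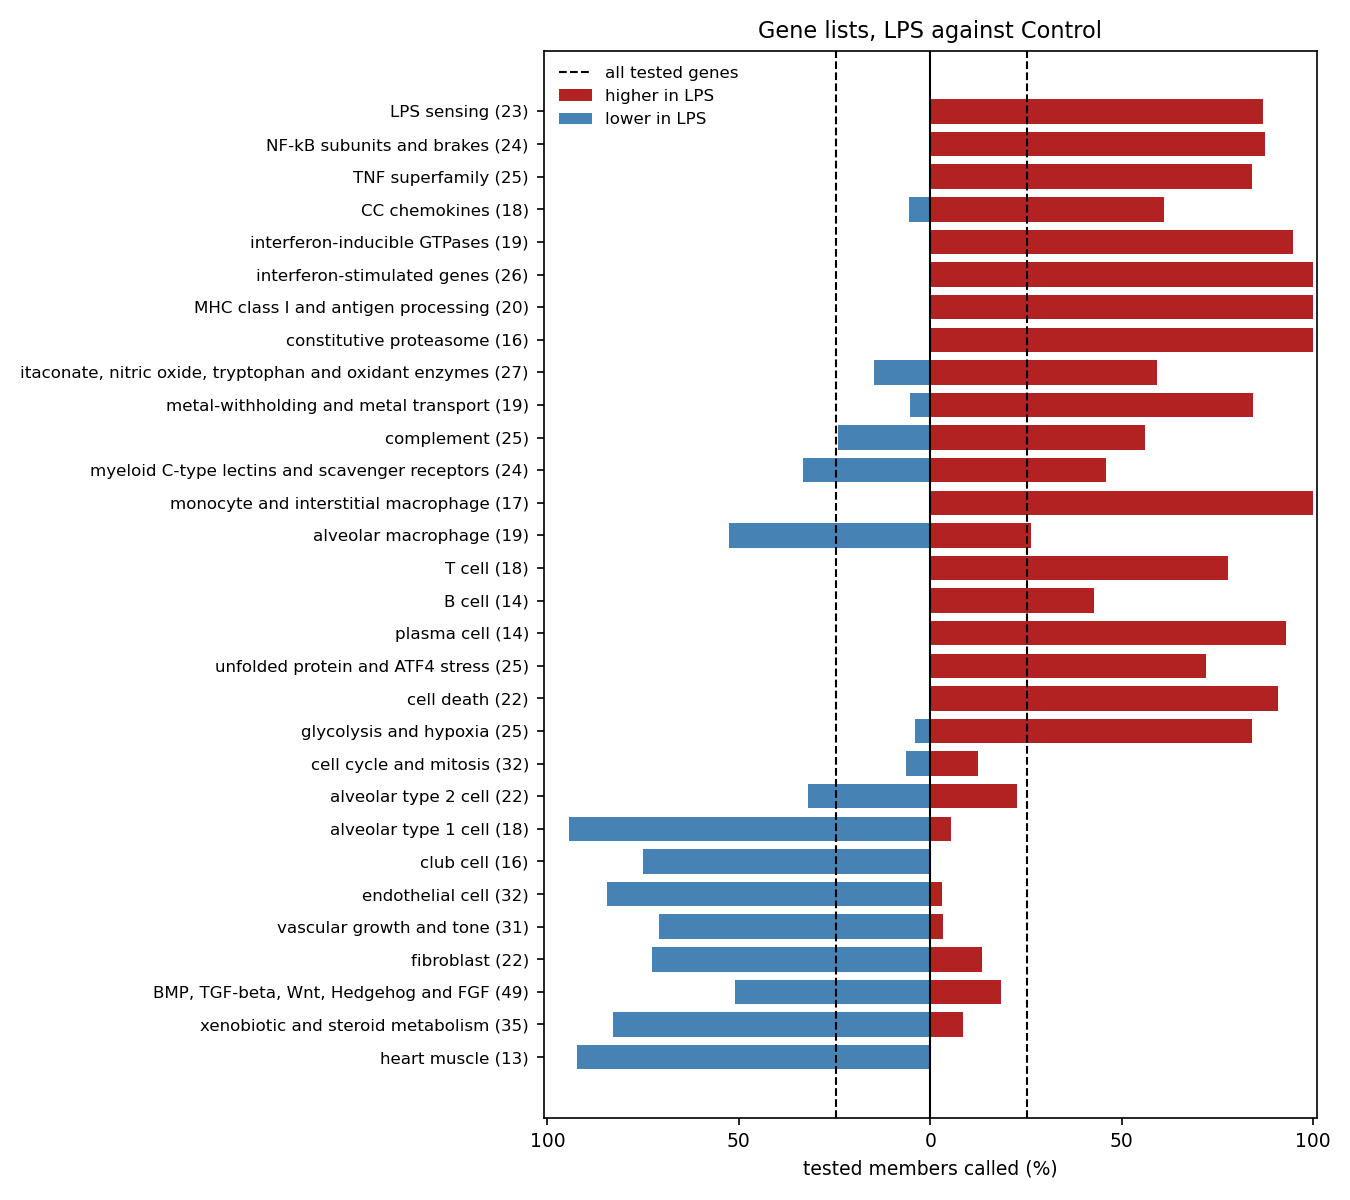
Share of tested members called higher (red, to the right) and lower (blue, to the left) in LPS for 30 gene lists, in percent of the tested members given after each name. Dashed lines mark the shares over all tested genes, 25.3% higher and 24.7% lower. Immune lists extend to the right and vascular, secretory-cell and drug-metabolism lists to the left.

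Enzymes of activated macrophages rose, while the oxidase gene Nox4 and the antioxidant genes Cat and Gpx3 fell. Nos2, the inducible nitric oxide synthase, was at 12.7, 15.4 and 19.6 CPM in Control and 609, 405 and 620.2 CPM in LPS, a log2 fold change of 5.09 ± 0.39 (adjusted p = 6.32e-08). Ass1, which regenerates its substrate arginine, rose by 3.40 ± 0.24, and Gch1, which supplies its cofactor, by 1.60 ± 0.12. Arg1 and Arg2, which break arginine down, rose by 1.80 ± 0.37 and 2.56 ± 0.36, Arg1 to a level of 5.75 ± 2.70 CPM. Ido1, the tryptophan-degrading enzyme, was at 1.06, 0.192 and 2.26 CPM and 58.2, 34.4 and 38.2 CPM (5.21 ± 0.60), while its liver counterpart Tdo2 was at 1.27 ± 0.179 and 1.36 ± 0.126 CPM and was not called. The subunits of the phagocyte oxidase rose, for example Cybb (2.64 ± 0.22) and Ncf1 (2.55 ± 0.24), and Nox4, the oxidase of fibroblasts and vessels, fell by 1.41 ± 0.23. Of the antioxidant enzymes, mitochondrial Sod2 rose by 2.04 ± 0.10, whereas Cat fell by 1.15 ± 0.14 and extracellular Gpx3 by 0.78 ± 0.17. Over the 27 tested genes of the list, 16 rose and 4 fell.

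Genes that keep iron, zinc and manganese from microbes rose in 16 of 19 cases (median 2.04). Slc11a1, a metal pump of the phagosome, was at 4.78, 3.96 and 6.91 CPM in Control and 141, 126 and 153 CPM in LPS, a log2 fold change of 4.74 ± 0.42 (adjusted p = 2.15e-07). Fth1, the ferritin heavy chain that stores iron, was at 1637, 1448 and 1371 CPM and 5262, 5649 and 6321 CPM (1.95 ± 0.09), which placed it among the 12 genes with the highest mean CPM in LPS. Mt2, a zinc-binding metallothionein, rose by 3.99 ± 0.75. Tfrc, the iron uptake receptor, fell by 0.39 ± 0.13, a change not called when Control 1, Control 2, LPS 2 or LPS 3 was left out (adjusted p = 0.0551 to 0.109). Hamp, the hormone that lowers blood iron, was at 0.684 ± 0.471 CPM in Control and 0.686 ± 0.222 CPM in LPS and was not called.

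Complement genes rose at the start of the classical and alternative pathways, and some terminal components fell. Cfb, the protease of the alternative pathway, was at 73.2, 70.6 and 66.3 CPM in Control and 2325, 2214 and 2799.8 CPM in LPS, a log2 fold change of 5.13 ± 0.41 (adjusted p = 8.68e-08). The central component gene C3 rose by 2.08 ± 0.26, and C1qa, C1qb and C1qc, whose products form the recognition unit of the classical pathway, by 2.51 ± 0.31, 2.76 ± 0.34 and 2.74 ± 0.31. Cfd, the enzyme that activates factor B, fell by 2.75 ± 0.88, from 31.4, 29.6 and 23.6 CPM to 2.87, 5.87 and 3.77 CPM. Adipocytes are a known source of Cfd, and 9 of 12 tested adipocyte markers, Cfd among them, fell. Their part in the fall of Cfd was not tested. Its fall was not called without LPS 1 or without LPS 3 (adjusted p = 0.0604 and 0.0562). Hc, which encodes C5, fell by 1.02 ± 0.25 and C7 by 1.46 ± 0.22. In all, 14 of 25 tested genes rose and 6 fell, and 3 fell when LPS 3 was left out.

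Clotting genes moved in both directions, also among those that endothelium expresses. F10, the gene of factor X, was at 15.4, 14.1 and 9.49 CPM in Control and 152, 131 and 144 CPM in LPS, a log2 fold change of 3.46 ± 0.21. Procr, the endothelial receptor of protein C, was at 4.40, 4.79 and 3.94 CPM and 113, 107 and 131 CPM (4.74 ± 0.35). Thbd, which turns thrombin into an activator of protein C, was at 707, 697 and 599.5 CPM and 213, 235 and 196 CPM, a fall of 1.64 ± 0.29 on the log2 scale (adjusted p = 0.000186). The groups did not overlap for any of these, as for 61.3% of all tested genes. Tissue factor, F3, rose by 1.09 ± 0.31, and Vwf, the endothelial platelet-binding factor, fell by 0.95 ± 0.18.

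Surface lectins and scavenger receptors of myeloid cells split between a set that rose and a set that fell. Clec4e, which recognises mycobacterial glycolipids and damaged cells, was at 2.65, 2.23 and 4.39 CPM in Control and 411, 336 and 445 CPM in LPS, a log2 fold change of 7.00 ± 0.67. Its partner gene Clec4d was at 3.49, 1.98 and 2.78 CPM and 141, 140 and 152 CPM, a log2 fold change of 5.72 ± 0.63. The scavenger receptor gene Msr1 rose by 4.13 ± 0.34 and the fungal beta-glucan receptor gene Clec7a by 2.39 ± 0.28. Cd209a, a lectin of dendritic cells, was at 14.5, 13.6 and 8.97 CPM and 1.79, 1.30 and 1.28 CPM, a fall of 3.08 ± 0.39 (adjusted p = 7.01e-06). The haemoglobin scavenger gene Cd163 fell by 1.94 ± 0.44, the mannose receptor gene Mrc1 by 1.05 ± 0.24 and the fatty acid transporter gene Cd36 by 1.47 ± 0.18. The endothelial members Clec1a and Stab2 fell by 1.32 ± 0.32 and 1.31 ± 0.27. Over the 24 tested genes, 11 rose and 8 fell (median 0.59).

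Markers of monocytes and interstitial macrophages rose and those of alveolar macrophages moved both ways. All 17 tested markers of monocytes and interstitial macrophages rose (median 2.69), for example Trem2 (3.11 ± 0.34) and Ms4a7 (3.57 ± 0.34). Of 19 alveolar macrophage markers, 5 rose and 10 fell, and with the 6 libraries alone in the fit 1 rose. Siglec5, the table's symbol for the alveolar macrophage marker Siglec-F, was at 34.5, 29.4 and 27.4 CPM in Control and 5.95, 10.4 and 3.57 CPM in LPS, a fall of 2.19 ± 0.37. The lipid factor gene Pparg fell by 0.67 ± 0.18, and Marco, a scavenger receptor of these cells, had a log2 fold change of 0.27 with overlapping groups.

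Neutrophil markers rose in 13 of 17 cases, and 3 genes of granules made in bone marrow precursors were called with the 6 libraries alone but not in the fit of all 21. S100a8 was at 6.60, 6.38 and 17.0 CPM in Control and 171, 168 and 241 CPM in LPS (4.27 ± 0.94). Trem1, an amplifier receptor, rose by 3.39 ± 0.54, and the neutrophil surface gene Mrgpra2b had 3 counts in Control and 596 in LPS. The granule gene Ltf was at 32.8, 35.3 and 33.9 CPM and 129, 165 and 169.7 CPM, without overlap, and was not called (log2 fold change 2.18, adjusted p = 0.091), though it was with the 6 libraries alone (adjusted p = 6.58e-07). Ngp and Camp had log2 fold changes of 2.21 and 1.52 and were not called, though they were with the 6 libraries alone (adjusted p = 0.00189 and 0.0119). Elane and Mpo, transcribed in early precursors, were too low to test, with 2 and 2 counts in Control and 1 and 15 in LPS.

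Receptors for antibody on phagocytes rose. Fcgr1, the high-affinity IgG receptor, was at 6.37, 6.07 and 5.36 CPM in Control and 68.5, 50.7 and 53.2 CPM in LPS (3.28 ± 0.31), and the inhibitory receptor gene Fcgr2b rose by 3.35 ± 0.38. Fcgrt, which recycles IgG in endothelium and other cells, fell by 0.78 ± 0.10. In all, 10 of 14 tested genes of antibody binding and transport rose and 2 fell. The Ly6 surface antigens rose in 7 of 9 cases. Ly6i was at 0.607, 0.830 and 0.646 CPM and 88.2, 84.7 and 138 CPM, while Ly6g, the neutrophil antigen, had no count in Control and 31 in LPS. Dendritic cell markers rose in 5 and fell in 4 of 16 cases, and Flt3, a growth factor receptor of these cells, had a log2 fold change of 0.54 and was not called, though it was with the 6 libraries alone (adjusted p = 0.0385).

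Most tested markers of T cells and cytotoxic cells rose, and the mast cell genes Mcpt4 and Cpa3 fell. T cell markers rose in 14 of 18 cases (median 1.75) and cytotoxic markers in 12 of 15 (median 2.19). Only 8 of 16 listed markers of mast cells, basophils and eosinophils were tested, of which 5 fell and 1 rose. Cd3e, part of the T cell receptor complex, was at 1.29, 2.36 and 3.03 CPM in Control and 10.5, 9.49 and 12.3 CPM in LPS (2.26 ± 0.44). Tcf7 and Lef1, factors of naive T cells, had log2 fold changes of 0.07 and -0.32 and were not called. Gzmb, the cytotoxic granule protease, rose by 3.52 ± 0.59, and Gzma had a value of 0.77 with overlapping groups. The mast cell protease gene Mcpt4 fell by 1.57 ± 0.46 and Cpa3 by 1.21 ± 0.39, from 3.58 ± 0.342 to 1.54 ± 0.229 CPM, which was not called without LPS 2 (adjusted p = 0.054). Prg2, an eosinophil granule gene also expressed in plasma cells, rose by 3.28 ± 0.83.

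Transcripts of switched antibody classes rose, and IgM took a smaller share of heavy-chain transcripts in LPS. Ighg1 was at 4.40, 2.49 and 11.1 CPM in Control and 1746, 5860.4 and 789.7 CPM in LPS, a log2 fold change of 8.86 ± 1.46 (adjusted p = 0.000125), with LPS 2 well above the other two. Igha, the heavy chain of mucosal IgA, was at 42.1, 53.1 and 63.3 CPM and 2308, 1872 and 2725 CPM (5.44 ± 0.62). Ighm was at 129.8, 45.3 and 243 CPM and 591, 542 and 436 CPM, a log2 fold change of 1.91 ± 0.92 that was not called (adjusted p = 0.0955, and 0.0498 with DESeq2), although the groups did not overlap. Per kilobase of annotated exon, Ighm made up 76.4%, 50.6% and 79.4% of the 7 heavy-chain constant genes measured in Control and 10.3%, 6.22% and 11.8% in LPS. The class with the largest share differed among LPS libraries. It was Igha in LPS 1 (28.3%) and LPS 3 (52%) and Ighg1 in LPS 2 (48.9%). Pigr, the epithelial receptor that carries IgA into the airway, rose from 246, 205 and 238 CPM to 1011, 1128 and 1212 CPM (2.28 ± 0.29).

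**Figure D4:**
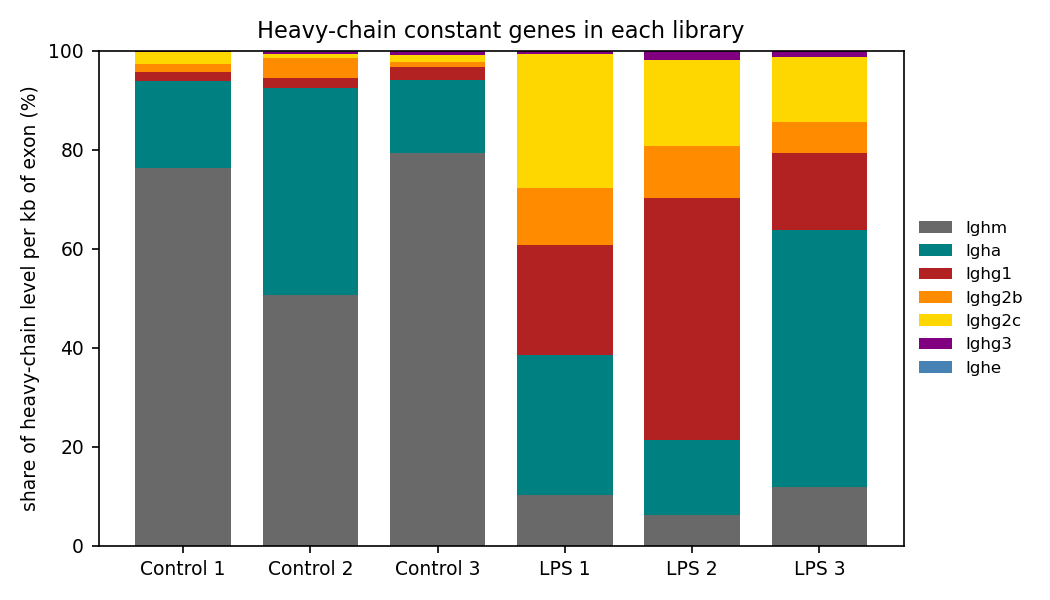
Share of each heavy-chain constant gene in the summed level per kilobase of exon (y axis, percent) for the 6 libraries. Ighm takes 50.6% to 79.4% in Control and 6.22% to 11.8% in LPS, where Igha, Ighg1 and Ighg2c take most of the rest.

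The antibody variable segments differed between LPS libraries as well. Of 160 tested segments, 117 rose and 0 fell, and 38 varied more than 10-fold among the LPS libraries. In LPS 2 the light-chain segment Igkv1-88 alone took 32.3% of all variable-segment counts, 17028 of 52654. The same segment had 13 counts in LPS 1 and 368 in LPS 3. In LPS 1 the leading segment was Igkv4-59 with 9.84%, and in LPS 3 Igkv1-110 with 7.74%. Some segments resemble each other closely, and how shared reads were assigned is not given in the sources used here.

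For B cell markers, the count depended on 1 Control library. Of 14 tested markers, 6 rose, and 12 rose when Control 3 was left out. Leaving out Control 1 or Control 2 gave 3, and the 6 libraries alone 2. Their summed level was 103, 66.7 and 321 CPM in Control and 499, 392 and 363 CPM in LPS. Cd79a, a subunit of the B cell receptor, was at 8.95, 5.11 and 40.1 CPM in Control and 49.7, 35.8 and 37.6 CPM in LPS, so that Control 3 exceeded LPS 2 and LPS 3. It was not called, and without Control 3 it rose by 2.57 (adjusted p = 0.004). Pou2af1, a co-activator of antibody genes, was at 6.98, 4.34 and 21.2 CPM and 75.8, 70.5 and 49.6 CPM and rose by 2.58 ± 0.65. Plasma cell markers rose in 13 of 14 cases (median 1.86), for example Mzb1 (3.71 ± 0.74), a chaperone of antibody assembly. Among genes of lymphoid tissue, the follicle chemokine gene Cxcl13 was at 8.72, 4.47 and 7.23 CPM and 191, 223 and 192 CPM (4.90 ± 0.80). Ch25h and Cyp7b1, which make the oxysterol that guides B cells, rose by 3.46 ± 0.35 and 2.35 ± 0.35. Glycam1, a ligand of L-selectin on the high venules of lymph nodes, had no count in Control and 29 in LPS. It was called higher (adjusted p = 0.0463), but not when any of the 6 libraries was left out in turn (adjusted p = 0.057 to 0.102).

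**Figure D5:**
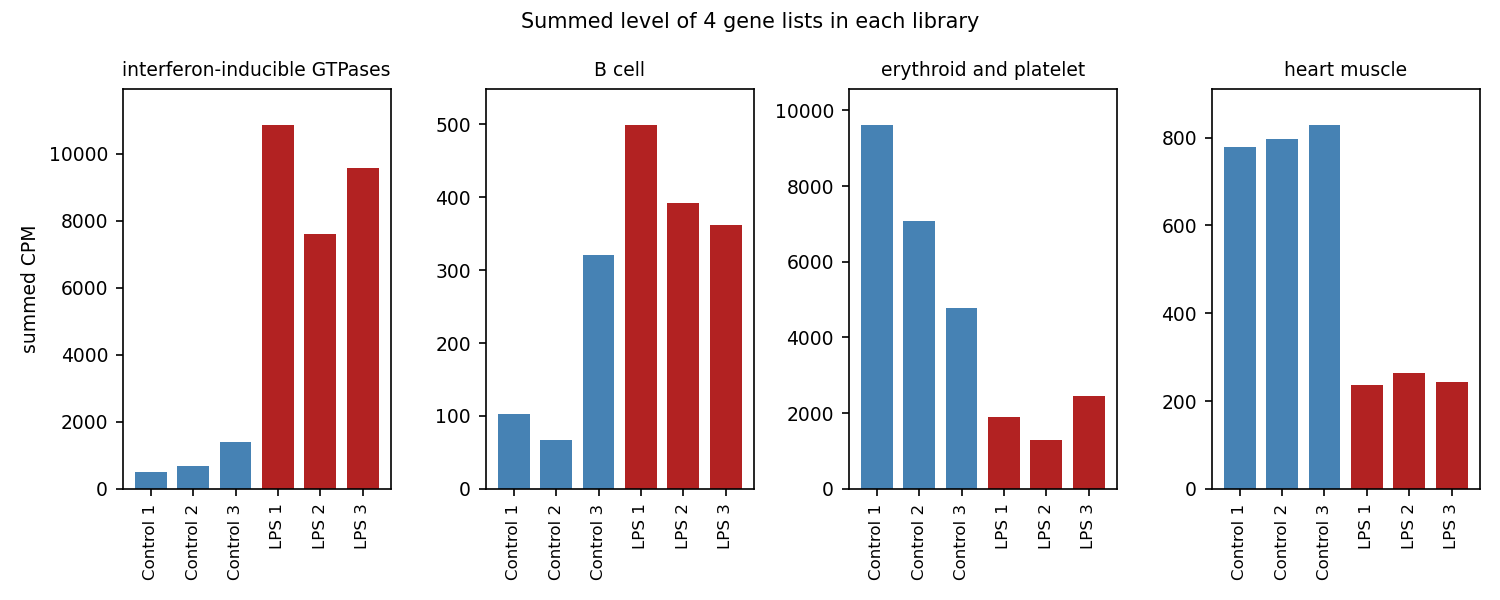
Summed CPM (y axis, from 0) of 4 marker lists in each library. Control 3 is the highest Control library for the B cell markers and the interferon-inducible GTPases and the lowest for the erythroid and platelet markers, and heart muscle markers are even within each group.

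Airway and alveolar epithelial markers were lower for several cell types, while some host-defence products of these cells rose. Club cell markers fell in 12 of 16 cases (median -1.44) and type 1 alveolar cell markers in 17 of 18 (median -0.70). Scgb3a2, a secretoglobin of club cells, was at 721, 787 and 740.2 CPM in Control and 246, 211 and 263 CPM in LPS, a fall of 1.64 ± 0.23. Ager, the leading type 1 cell marker, fell by 0.57 ± 0.12 and Hopx by 1.05 ± 0.15, while Pdpn, which macrophages and lymphatic vessels also express, rose by 0.77 ± 0.18. The type 2 cell list was mixed, with 5 members higher and 7 lower of 22, and 4 lower without LPS 3. Within it the surfactant genes parted. Sftpc and Sftpb, which lower surface tension, fell by 1.15 ± 0.19 and 0.68 ± 0.13, and Sftpd, a collectin that binds microbes, was at 1216, 1078 and 963 CPM and 2067, 2451 and 2669 CPM, a rise of 1.14 ± 0.18 (adjusted p = 6.89e-05). The other collectin gene, Sftpa1, was at 4919, 4202 and 3638 CPM and 4806, 5206 and 5427 CPM, overlapped and was not called. Chi3l1, a chitinase-like protein, rose by 1.50 ± 0.21.

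Genes of injured epithelium rose in 10 of 19 cases. Cldn4, a tight-junction protein of stressed alveolar epithelium, was at 4.17, 4.92 and 7.10 CPM in Control and 25.1, 28.3 and 33.9 CPM in LPS (2.43 ± 0.35). The keratin genes Krt8 and Krt18 rose by 0.60 ± 0.18 and 1.13 ± 0.14, while Krt19 fell by 0.46 ± 0.13 and the basal-cell gene Krt15 by 2.80 ± 0.86. Mucous cell markers rose in 7 of 19 cases, and in 4 without LPS 3. The gel-forming mucin gene Muc5ac was at 2.58, 3.45 and 7.62 CPM and 6.88, 11.4 and 11.2 CPM, and its log2 fold change of 1.10 ± 0.41 was called. The groups overlapped, and it was not called when Control 1, Control 2, LPS 2 or LPS 3 was left out (adjusted p = 0.0886 to 0.126). The lineage factor genes Spdef and Foxa3 had log2 fold changes of 0.16 and 0.17 and were not called. Ciliated cell markers fell in 5 of 21 cases, in 2 or 3 when Control 2, Control 3, LPS 1 or LPS 2 was left out, and in 11 with the 6 libraries alone in the fit. Foxj1, the ciliary lineage factor, had a value of 0.41 and was not called, and with the 6 libraries alone it was called higher (adjusted p = 0.00952).

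Several junction and transport genes of vessels and alveolar epithelium fell. Junction genes fell in 13 of 24 cases and rose in 4. Cdh5, the endothelial cadherin, was at 794, 779.9 and 834 CPM in Control and 392, 339 and 318 CPM in LPS, a fall of 1.20 ± 0.25, while Cdh1, the epithelial one, had a log2 fold change of -0.03 and was not called. Aqp1, the water channel of capillaries, fell by 1.28 ± 0.19, and the sodium channel subunit genes Scnn1b and Scnn1g by 0.63 ± 0.10 and 0.53 ± 0.16, with 0.04 for Scnn1a, not called. Slc26a4, an anion exchanger of airway epithelium, was at 29.9, 28.1 and 34.3 CPM and 134, 139.5 and 132 CPM, a rise of 2.13 ± 0.54 (adjusted p = 0.00409).

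Endothelial markers fell in 27 of 32 cases (median -1.11) and genes of vascular growth and tone in 22 of 31 (median -0.96). Ednrb, the endothelin receptor of lung capillaries, was at 92.1, 110.3 and 116 CPM in Control and 26.9, 21.1 and 13.9 CPM in LPS, a fall of 2.36 ± 0.32 (adjusted p = 1.51e-05). Vegfa, the vascular growth factor that alveolar epithelium supplies, was at 1192, 1252 and 1059 CPM and 603, 438 and 449 CPM, a fall of 1.23 ± 0.22, and its receptor gene Kdr fell by 1.13 ± 0.31. Angpt1, which stabilises vessels, fell by 1.69 ± 0.20, whereas its antagonist Angpt2, at 24.5 ± 2.67 and 24.5 ± 8.01 CPM, was not called. Vascular genes that admit leukocytes went the other way. Sele, an endothelial selectin, was at 0.152, 0.255 and 0.968 CPM in Control and 5.02, 3.21 and 7.54 CPM in LPS (3.47 ± 0.65). Selp, another, was at 2.81, 3.45 and 4.65 CPM and 38.9, 30.5 and 39.0 CPM (3.31 ± 0.29). Icam1 and Vcam1, ligands of leukocyte integrins, rose by 0.92 ± 0.13 and 0.94 ± 0.22, while Icam2 and Pecam1, present on resting endothelium, fell by 1.09 ± 0.28 and 1.07 ± 0.19. Over the adhesion molecules of leukocyte entry, 13 of 17 rose and 3 fell. Pericyte and smooth muscle markers fell in 9 of 18 cases.

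Fibroblast markers fell in 16 of 22 cases, while major fibrillar collagens rose. Inmt, a methyltransferase abundant in lung fibroblasts, was at 1885, 1611 and 1547 CPM in Control and 421, 307 and 251 CPM in LPS, a fall of 2.36 ± 0.21. Tcf21, the factor of lipid-storing fibroblasts, fell by 1.85 ± 0.31 and Npnt, a basement membrane ligand, by 1.74 ± 0.13. Col1a1 was at 125, 125 and 86.4 CPM and 219, 259 and 406 CPM and rose by 1.39 ± 0.25, and Col1a2 and Col3a1 rose by 1.03 ± 0.18 and 0.94 ± 0.21. Basement membrane collagens differed by chain. Col4a3, Col4a4 and Col4a5, chains of the alveolar membrane, fell by 0.96 ± 0.13, 0.69 ± 0.09 and 1.23 ± 0.18, and the ubiquitous Col4a1 rose by 0.44 ± 0.14, which was not called without LPS 3 (adjusted p = 0.0636). Over the 38 tested matrix genes, 11 rose and 15 fell (median -0.21). Among proteases and their inhibitors, 17 of 27 rose. The macrophage elastase gene Mmp12 was at 8.65, 7.98 and 12.2 CPM and 194, 362 and 114 CPM (4.53 ± 0.65), and the elastase inhibitor gene Slpi rose by 2.96 ± 0.39. Timp2 and Mmp15, of resident tissue, fell by 0.73 ± 0.10 and 0.68 ± 0.10.

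Growth factor pathways of lung structure had more genes lower than higher. Of 49 tested genes of the BMP, TGF-beta, Wnt, Hedgehog and FGF pathways, 25 fell and 9 rose (median -0.52), with 22 lower without LPS 3. Fgfr4 was at 33, 36.1 and 34.8 CPM in Control and 7.02, 6.35 and 7.61 CPM in LPS, a fall of 2.31 ± 0.36 (adjusted p = 6.09e-05). Wnt2, a fibroblast ligand, fell by 1.96 ± 0.43, and Bmpr2, a receptor whose loss causes pulmonary hypertension, by 1.18 ± 0.18. Inhba, which encodes the activin A subunit, was at 0.531, 0.702 and 0.258 CPM and 50.2, 34.4 and 49.1 CPM, a rise of 6.47 ± 0.73, and its antagonist gene Fst rose by 2.18 ± 0.26. The Wnt antagonists differed in direction, with Sfrp1 higher by 1.80 ± 0.29 and Wif1 lower by 1.92 ± 0.19.

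Drug-metabolising and steroid-metabolising genes fell in 29 of 35 cases (median -1.21). Fmo2, a lung oxygenase, was at 1004, 839 and 906 CPM in Control and 327, 315 and 284 CPM in LPS, a fall of 1.57 ± 0.24, and Ces1d, a carboxylesterase, fell by 1.75 ± 0.13. Cyp1a1 was at 20.1, 21.5 and 0.904 CPM and 1.94, 0.683 and 1.01 CPM, so Control 3 lay among the LPS libraries although the gene was called lower (log2 fold change -3.55 ± 0.91). With the 6 libraries alone in the fit it was not called (adjusted p = 0.0733). Cyp1b1, a relative with the same aryl hydrocarbon receptor control, rose by 2.21 ± 0.32. The glucocorticoid-activating Hsd11b1 fell by 1.50 ± 0.26 and the inactivating Hsd11b2 rose by 2.24 ± 0.47, to 8.16 ± 1.48 CPM.

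Genes of glucose use mostly rose, and more genes of fat use fell than rose. Of 25 tested genes of glycolysis and hypoxia, 21 rose (median 1.04). Slc2a6 and Hk3, a glucose transporter and a hexokinase of leukocytes, rose by 4.29 ± 0.38 and 3.86 ± 0.28, and the broadly expressed Hk1 by 0.60 ± 0.09. Hif1a, the oxygen-sensing factor of inflamed cells, was at 94.7, 92.5 and 88.2 CPM in Control and 331, 247 and 289.8 CPM in LPS (1.66 ± 0.15), while Epas1, its endothelial relative, was at 1921, 1608 and 1908 CPM and 822, 764 and 809 CPM, a fall of 1.18 ± 0.20. Genes of fatty acid oxidation and lipid handling fell in 12 of 27 cases and rose in 5. Nuclear genes of the respiratory chain rose in 11 and fell in 4 of 26 cases, with none at least 2-fold higher, and mitochondrially encoded transcripts made up 2.00 to 2.15% of counts in LPS against 3.04 to 3.19% in Control. Sterol and fatty acid synthesis genes rose in 4 and fell in 8 of 26 cases, and the number that fell was 4 to 6 when any of the 6 libraries was left out in turn.

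Genes for synthesis and breakdown of prostaglandin E2 changed in opposite directions. Ptges, its inducible synthase, was at 29.7, 28.4 and 38.5 CPM in Control and 161, 156 and 231 CPM in LPS (2.50 ± 0.24). Hpgd, which inactivates it, was at 395, 370.1 and 496 CPM and 140.2, 119.7 and 86.7 CPM, a fall of 1.86 ± 0.38 (adjusted p = 0.000722). Ptgs2, the inducible cyclooxygenase, rose by 1.32 ± 0.29, and Ptgs1 had a log2 fold change of 0.23 and was not called, though it was with the 6 libraries alone (adjusted p = 0.0181). On the leukotriene side, Alox5 and Ltc4s fell by 1.17 ± 0.30 and 1.60 ± 0.20, and the neutrophil receptor gene Ltb4r1 rose by 2.27 ± 0.32.

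Stress and death genes rose, and proliferation genes were mostly not called. Genes of the unfolded protein response rose in 18 of 25 cases (median 0.79), such as the chaperone gene Hspa5 (1.13 ± 0.16) and Sdf2l1 (2.47 ± 0.21). Cell death genes rose in 20 of 22 cases, among them the necroptosis genes Ripk3 (1.70 ± 0.21) and Mlkl (2.32 ± 0.22) and the survival gene Bcl2a1b (2.79 ± 0.26). Of 32 cell cycle genes, 4 rose and 2 fell (median 0.02), with 7 higher without Control 3 and 0 lower without LPS 3. Mki67, the proliferation marker, was at 34.9, 56.0 and 77.3 CPM in Control and 81.6, 87.8 and 66.6 CPM in LPS. It overlapped and was not called, and it was called higher without Control 3 (adjusted p = 0.00238) and without LPS 3 (0.0384). Targets of NRF2, the factor of the oxidative stress response, rose in 11 and fell in 1 of 17 cases (median 0.41). Slc7a11, the cystine importer of that programme, was at 4.93, 5.49 and 10.9 CPM and 129, 117 and 129.9 CPM (4.13 ± 0.39), whereas Nqo1, a quinone reductase and the member that fell, was lower by 1.24 ± 0.25. Clock genes rose in 3 and fell in 6 of 19 cases. Nr1d1, a repressor of inflammatory genes, was at 80.0, 66.9 and 114 CPM and 34.0, 29.4 and 29.2 CPM, a fall of 1.49 ± 0.44, and Nfil3 rose by 2.04 ± 0.40. The fall of Nr1d1 was not called with only the libraries whose mt-Atp8 to mt-Atp6 ratio was that of Control (adjusted p = 0.0554). The hour of tissue collection is not given in the labels. Targets of p53 rose in 7 and fell in 3 of 16 cases. Among them the feedback inhibitor gene Mdm2 rose by 0.56 ± 0.07, and Cdkn1a, the cell cycle inhibitor, had a log2 fold change of 0.73 and was not called, though it was with the 6 libraries alone (adjusted p = 0.0451).

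Several of the genes with the lowest fold changes are known from fat cells. Cd209b, a lectin that binds bacterial sugars, had 233 counts in Control and 2 in LPS, a Control to LPS ratio of 114 (95% interval 31.2 to 948, counting error only). Fabp1, a fatty acid binding protein, was at 21.7, 14.4 and 13.0 CPM in Control and 0.502, 0.614 and 0.337 CPM in LPS. Ucp1, the heat-producing protein of brown fat, was at 7.28, 7.72 and 7.36 CPM and 0.215, 0 and 0.0673 CPM, and Adipoq and Plin1, of fat cells, and Pck1, of fat and liver, also stood in this set. Asgr1, a receptor of desialylated glycoproteins, was at 8.72, 5.68 and 5.81 CPM and 0.573, 0.205 and 0.202 CPM. Grin2b, a glutamate receptor subunit, was at 2.12, 3.32 and 3.68 CPM and 0.0717, 0.205 and 0.0673 CPM, and Rspo4, a Wnt co-activator, at 2.50, 3.06 and 2.78 CPM and 0.287, 0.0683 and 0.0673 CPM. Only genes whose groups did not overlap could enter this set, and its others were Car3, Dhrs7c and Gsg1l. The adipocyte marker list fell in 9 of 12 cases and the heart muscle list in 12 of 13, and without LPS 3 the adipocyte count was 6. Ucp1 was then not called (adjusted p = 0.0618), nor was it without LPS 2 (0.0613), and Pck1 was not called without LPS 1 (0.0694) or without LPS 3 (0.0631). Whether less surrounding fat and heart tissue was sampled in LPS was not tested.

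Within LPS, libraries differed for a minority of genes. A ratio over 2 between the highest and lowest LPS library was found for 1195 of the tested genes. Spp1, the gene of osteopontin, a macrophage and matrix protein, was at 344, 787 and 116 CPM in LPS against 106, 99.2 and 102 CPM in Control, so LPS 3 lay near Control. With the 6 libraries alone in the fit it was not called (adjusted p = 0.0739). Col24a1, a fibrillar collagen, followed the same order with 5.59, 11.5 and 2.63 CPM. H2-Bl, a class I-like gene, was highest in LPS 3 (7.38, 9.97 and 31.0 CPM), and Evi2a highest in LPS 1 (11.4, 7.58 and 3.23 CPM). N28178 was lower in LPS, with 7.67, 5.74 and 1.95 CPM against 24.2, 19.2 and 21.0 CPM in Control. Dlk1, an imprinted gene of the embryo, was at 23.6, 0.205 and 0 CPM, high in LPS 1 and near the Control level of 0.0759, 0.0638 and 0.194 CPM in the other two. Its log2 fold change of 6.04 ± 2.11 became -0.13 without LPS 1.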

How the data were processed

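Lung RNA of the 6 libraries was sequenced on an Illumina HiSeq from TruSeq version 2 libraries, per the labels. The authors deposited raw counts per gene symbol, and the deposited counts were used as they stand. The submitters' processing notes name genome build mm10, and the sources used here give no aligner, counter or annotation and do not say how reads shared by similar genes were handled. The split of counts within families of similar genes (Ly6, Gbp and Tgtp GTPases, H2, Orm, immunoglobulin segments) and between overlapping genes is therefore uncertain.

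Counts of all 21 libraries (7 groups of 3) were fitted with edgeR 4.0.16 in R 4.3.3, using TMM scaling, filterByExpr with a minimum count of 10, and the quasi-likelihood test with Benjamini-Hochberg adjustment over the 15770 of 38924 genes tested. The fit had 14 residual degrees of freedom. It was also run on simulated counts that gave all genes the same spread. That run checked the recovery of planted changes and cannot give an error rate for these data. Gene coordinates are from GENCODE for GRCm38. Intervals on counts cover counting error only, and floors are 3 counts over a group. Members and gene lists were chosen with earlier results of these data known. Genes named outside the lists were the 12 highest and 12 lowest by log2 fold change among called, non-overlapping genes of at least 1 CPM, the 12 most abundant in each group and the 6 most variable among LPS libraries. Genes were left unnamed among the first 24 where they were uncharacterised or antibody or T cell receptor segments. The 15 alternatives covered scaling, filtering, test (DESeq2 1.42.0 among them), libraries fitted, library sets, depth and each library left out.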

Additional observations from a re-analysis of the deposited data

How the results depend on the processing

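The 15 alternatives kept the count of called genes within 1.5 times of 7890, except the edgeR test against a fold of 2, which called 1306 genes, 969 higher and 337 lower, 1306 of them at least 2-fold. Leaving out each library in turn gave 6613 (without LPS 3) to 7269 (without Control 3) called genes, 3539 to 3810 higher, 3074 to 3459 lower and 2595 to 2815 at least 2-fold. A term for the 3 library sets read from the mt-Atp8 to mt-Atp6 ratio gave 6623 calls, 6486 of them shared with the 7890. DESeq2 called 7933, of which 7624 were shared. Deviations from the group means of Control and LPS libraries with the same number correlated at -0.12, 0.019 and -0.14 over 12185 genes, so the numbers do not pair the libraries. A replicate block in the fit of the 6 libraries gave 7309 calls, 6829 of them shared. Among named genes, the direction reversed for Dlk1 without LPS 1 (from -0.13 to 6.70 over the libraries left out in turn), and for mt-Atp8 with the term for library sets (-0.43) and with the libraries of the Control ratio alone (-0.41). Counts of members called in gene lists moved by over 1.5 times for 83 of 136 counts with the test against a fold of 2, for 12 with the 6 libraries alone, 12 with the replicate block, 11 with the term for library sets, 10 without LPS 3 and 10 without Control 3, and for 9 or fewer under each other alternative. With the replicate block, Pou2af1 had an adjusted p of 0.0606. At these totals, genes with a few counts per library, such as Il4 and Il5, were not tested.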

Other observations

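Several further genes differed among libraries of 1 group, and they were chosen after their values had been seen. Of these, Ctsk and Fcer2a are members of gene lists counted above. Meg3 and Rian, noncoding genes of the imprinted locus that holds Dlk1, were at 45.2, 3.41 and 4.17 CPM and 18.5, 2.39 and 3.23 CPM in LPS 1 to 3 and at 10.0, 11.9 and 14.4 CPM and 6.37, 7.28 and 5.42 CPM in Control, so both stood out in LPS 1. The inducible heat shock gene Hspa1b was at 15.9, 26.5 and 74.2 CPM in LPS and 34.1, 52.7 and 6.58 CPM in Control, highest in LPS 3 and lowest in Control 3. Ctsk, a collagen-degrading protease of macrophages and osteoclasts, was at 92.3, 201 and 59.9 CPM in LPS and 48.5, 43.7 and 49.1 CPM in Control, with LPS 3 the lowest of its group as for Spp1 and Mmp12. In Control 3, the B cell gene Fcer2a was at 24.6 CPM, against 5.38 CPM in Control 1 and 3.26 CPM in Control 2. What sets these libraries apart was not tested.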
